A study of Mus musculus with 8 samples.

Results

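The ParaHox cluster on mouse chromosome 5 holds Gsx1, Pdx1 and Cdx2, and its H3K27me3 was read here from adult male liver. Its territory was taken as a window of 140 kb in build mm9, chr5:147990001-148130000, with a flank of 200 kb on each side. The edges of the window are approximate and do not follow an annotation. In each list from the shorter fragments 2 islands overlapped the window, of 6295 to 14748 islands per list, and in each list from the longer fragments 1 island did, of 17577 to 22077. The islands are the authors' stretches of enrichment, listed per library, each with a score. SICER, named in the submitters' processing notes, scores an island against the background of its own library.

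All livers came from male mice of the outbred CD-1 stock at 7 weeks of age, and the labels name no genetic change. The TCPOBOP group received this agonist of the nuclear receptor CAR at 3 mg/kg, the vehicle group received 1% DMSO in corn oil, and both were taken 3 h after injection. Chromatin of each frozen liver was crosslinked with formaldehyde and immunoprecipitated with 1 H3K27me3 antibody. Immunoprecipitated fragments of 600 to 1100 bp, digested to 500 bp, gave 3 TCPOBOP and 3 vehicle libraries from 6 individual livers. Fragments over 1100 bp, digested to 200 bp, gave 1 more TCPOBOP and 1 more vehicle library, each from the ChIP sample of replicate 1 of its treatment. The 600 to 1100 bp lists covered 174 to 340 Mb and the lists over 1100 bp 654 to 676 Mb. Read depth is unknown, because the lists hold no counts. Islands covered 0% of an approximate window at Alb, the albumin gene that hepatocytes transcribe, and its fetal relative Afp in each of the 8 lists.

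H3K27me3 is laid down by Polycomb repressive complex 2 and marks developmental regulator genes that a tissue keeps silent, often around CpG-rich promoters. The ParaHox genes are the evolutionary sister cluster of the Hox genes and encode homeodomain transcription factors. Gsx1 acts in progenitors of the developing brain, Pdx1 in the pancreas and duodenum and later in insulin-producing beta cells, and Cdx2 in the trophectoderm and the intestinal epithelium. In the gene order of GRCm38.p6 the 3 genes follow each other in this order with no other protein-coding gene between them. Before Gsx1 come Gtf3a, a factor for transcription of ribosomal RNA genes, Mtif3 of mitochondrial translation, the ubiquitin ligase gene Lnx2 and the RNA polymerase subunit gene Polr1d. After Cdx2 come Urad of urate breakdown, the haematopoietic receptor gene Flt3, the deadenylase subunit gene Pan3 and the VEGF receptor gene Flt1. This table is of another build than the islands, so no island was assigned to a single gene.

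The promoters of the 3 members are shown because islands covered nearly the whole window and because CpG content is a sequence feature often tied to Polycomb targets. They run from 250 bases before to 50 bases after the start site in RefSeq, build GRCm38.p6, at chr5:147188446-147188745 on the plus strand for Gsx1, chr5:147269847-147270146 on the plus strand for Pdx1 and chr5:147307200-147307499 on the minus strand for Cdx2. These positions are not on the scale of the mm9 islands. Each is written 5′ to 3′ on the gene's strand, with CG dinucleotides in capitals.
Gsx1: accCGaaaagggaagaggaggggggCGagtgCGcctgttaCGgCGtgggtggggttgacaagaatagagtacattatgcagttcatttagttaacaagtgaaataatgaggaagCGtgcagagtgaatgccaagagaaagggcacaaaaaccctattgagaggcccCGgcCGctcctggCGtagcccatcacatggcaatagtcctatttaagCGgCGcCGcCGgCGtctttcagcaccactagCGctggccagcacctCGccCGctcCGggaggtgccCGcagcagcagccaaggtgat
Pdx1: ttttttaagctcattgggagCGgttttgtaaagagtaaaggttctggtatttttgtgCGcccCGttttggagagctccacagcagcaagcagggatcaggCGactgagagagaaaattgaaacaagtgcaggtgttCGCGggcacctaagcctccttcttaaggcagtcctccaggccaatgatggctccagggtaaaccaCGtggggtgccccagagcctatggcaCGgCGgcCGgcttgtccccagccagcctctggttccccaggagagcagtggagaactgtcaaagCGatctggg
Cdx2: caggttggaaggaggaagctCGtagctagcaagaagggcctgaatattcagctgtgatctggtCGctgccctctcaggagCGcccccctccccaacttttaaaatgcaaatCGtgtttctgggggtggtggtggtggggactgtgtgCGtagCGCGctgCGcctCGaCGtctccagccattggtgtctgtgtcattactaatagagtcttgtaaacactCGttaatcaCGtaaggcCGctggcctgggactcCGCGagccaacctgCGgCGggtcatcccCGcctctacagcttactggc

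Gsx1 had 19 CG dinucleotides in its 300 bases, an observed over expected ratio of 0.789. That count was above 71.9% of the 32851 promoters in the table. Cdx2 had 18, a ratio of 0.731, and its count was above 70.3% of promoters. Pdx1 had 11, a ratio of 0.485, with a count above 58.6% of promoters, against a median of 7 over the table. Among the 7 of 8 neighbours that the table holds, counts ran from 7 at Polr1d and 8 at Urad to 29 at Lnx2 and Flt1 and 31 at Pan3. The members thus lay inside the range of their neighbours. CACGTG, a palindromic E-box searched on both strands, occurred at Pdx1 alone among the members, starting 51 bases before the start site, and in 7.15% of all promoters of this length. CCAAT, searched on both strands, occurred at Pdx1, 74 and 238 bases before the start site, and at Cdx2, 72 bases before it, and in 37.4% of all promoters. TATAAA, searched on both strands, was in no member's window and in 13.6% of all promoters. These letter matches are descriptions and not binding sites.

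**Figure D1:**
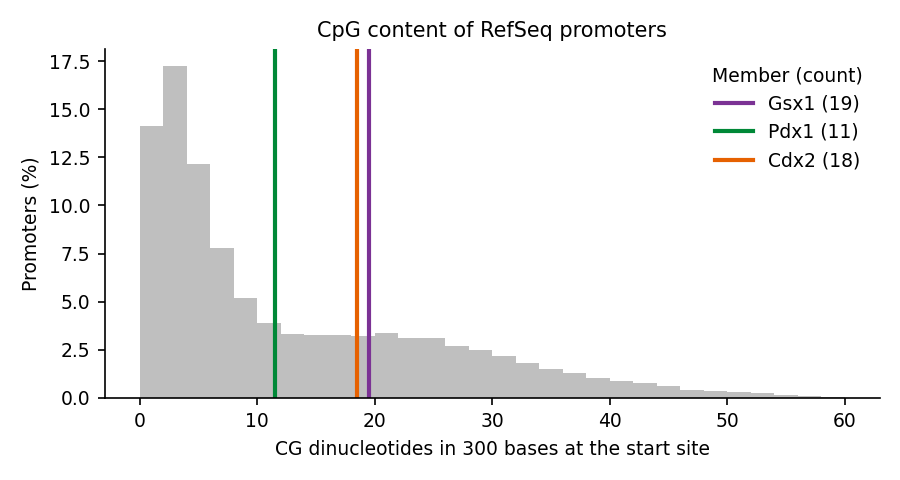
CG dinucleotides in the 300 bases around the start site (x axis) against the percent of the 32851 RefSeq promoters in bins of 2 counts (y axis, grey bars). Lines mark Gsx1 at 19, Pdx1 at 11 and Cdx2 at 18, all above the median of 7.

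The ParaHox window lay almost wholly under islands in every liver. Islands covered 97.7, 98.0 and 92.9% of it in TCPOBOP replicates 1, 2 and 3 and 97.1, 96.3 and 93.4% in vehicle replicates 1, 2 and 3. The treatments overlapped, and the lowest liver of each was replicate 3. Of the 140 kb, 117.6 kb (84.0%) was covered in all 6 livers and no position in fewer than 2. Among 9556 genome tiles of 140 kb with some cover in at least 1 of these libraries, 9 tiles (0.0942%) reached 92.9% or more in all 6, and the median tile was covered to 12.6% on average over the livers. This threshold is the lowest cover of the ParaHox window itself. The tiles lie on a fixed grid that can cut other domains, and tiles over this locus were not left out. Their share is thus a description and not a like comparison. Whole liver holds several cell types, and islands do not tell a mark carried by more cells apart from more of the mark per cell.

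The uncovered remainder lay in 1 short break per liver and, in 2 livers, at an edge of the window: 2.8 kb at the left in TCPOBOP replicate 3 and 6.0 kb at the right in vehicle replicate 3. Each 600 to 1100 bp list showed a first and a second island over the window, 2.8 to 7.2 kb apart. In TCPOBOP replicates 2 and 3 and vehicle replicates 1 and 2 the break fell between 148009201 and 148016400, so the second island began within 1.2 kb of the same place, at 148015601, 148016401, 148016001 and 148015201. In TCPOBOP replicate 1 the break was further on, from 148049601 to 148052800, and in vehicle replicate 3 from 148064801 to 148068000. Those livers had islands across the place where the other 4 broke. The stretches covered in all 6 livers were 16.4 kb from 147992801 to 148009200, 33.2 kb from 148016401 to 148049600, 12 kb from 148052801 to 148064800 and 56.0 kb from 148068001 to 148124000. All of them were also covered in both lists over 1100 bp, where 1 island spanned the window without a break.

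**Figure D2:**
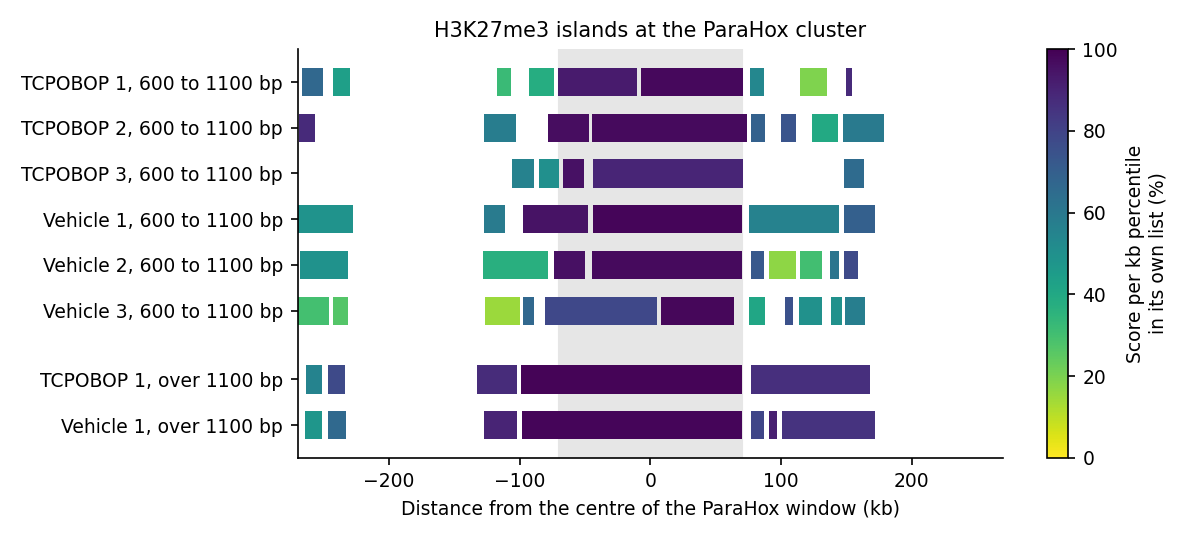
Islands of each list (rows) by distance in kb from the centre of the ParaHox window (x axis), coloured by the percent of islands in the same list with a lower score per kb; grey marks the window. Every list covers the window with 1 or 2 islands of high rank, and flanking islands are mostly narrower and of lower rank.

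The island with the longest overlap, called the main island here, was 78.4, 118.0 and 114.4 kb wide in TCPOBOP replicates 1 to 3 and 114.4, 115.2 and 85.2 kb in vehicle replicates 1 to 3. The narrower ones were in the livers whose break lay further on. In vehicle replicate 3 the main island was the first of the pair, while in the other 5 livers it was the second. By score within its list the main island ranked 42 of 13759, 29 of 10197 and 28 of 6295 in the TCPOBOP livers and 43 of 10057, 31 of 14748 and 95 of 12430 in the vehicle livers. The second island of vehicle replicate 3 ranked 42. By width the main island ranked 104, 57 and 22 in the TCPOBOP livers and 171, 55 and 41 in the vehicle livers.

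Score per kb, the authors' score divided by island width, was higher in the second island than in the first in 5 of the 6 livers. In TCPOBOP replicates 1, 2 and 3 the second island had 17.8, 14.5 and 8.57 per kb and the first 12.6, 13.6 and 10.7. In vehicle replicates 1, 2 and 3 the second island had 24.1, 21.7 and 17.0 per kb and the first 17.0, 19.0 and 8.37. TCPOBOP replicate 3 was the liver with the opposite order. The pairs were compared within a list only, because scores are relative to each library. Over the 6 livers the 12 islands over the window lay at a median percentile of 96.3 by score per kb in their own lists (range 78.4 to 98.7). The 16 islands of the left flank had a median of 48.9 (14.9 to 88.0) and the 20 of the right flank 58.4 (16.9 to 88.1). The medians of the flanks were thus close to the middle of their lists, and the window islands were near the top.

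The outer edges of the islands over the window had unequal spread over the 6 livers, 9.6 kb at the right and 30 kb at the left. Only islands that overlap the approximate window were joined, so these edges and their tests depend on where it was placed. Breaks of 2.8 to 7.2 kb inside it were bridged. In TCPOBOP replicates 1 and 3 and vehicle replicate 2 a further island ended at 147986400, 147990000 and 147982000, close before the joined start. Next islands on the right began at 148136001 and 148137201 in TCPOBOP replicates 1 and 2 and 148135601 and 148137201 in vehicle replicates 1 and 2. Joined islands ended at 148131200, 148133600 and 148130800 in TCPOBOP replicates 1 to 3 and at 148130400, 148130400 and 148124000 in vehicle replicates 1 to 3. The treatments did not overlap, but TCPOBOP replicate 3 and vehicle replicates 1 and 2 were 400 bp apart, the size of the counting window in the file names. The mean end was 3.6 kb further in TCPOBOP livers (exact two-sided permutation p = 0.1, the smallest that 3 livers against 3 allow), and 1.47 kb further without vehicle replicate 3. Joined islands began at 147989201, 147981601 and 147992801 in TCPOBOP livers and at 147962801, 147986001 and 147979601 in vehicle livers, and the treatments overlapped (difference 11.7 kb, exact permutation p = 0.2). The joined width was 144 ± 7.21 kb in TCPOBOP livers and 152 ± 13.4 kb in vehicle livers (SD, n = 3 each, exact permutation p = 0.5). A stretch of 2.0 kb from 148133601 to 148135600 just past the joined islands was free of islands in all 8 lists.

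**Figure D3:**
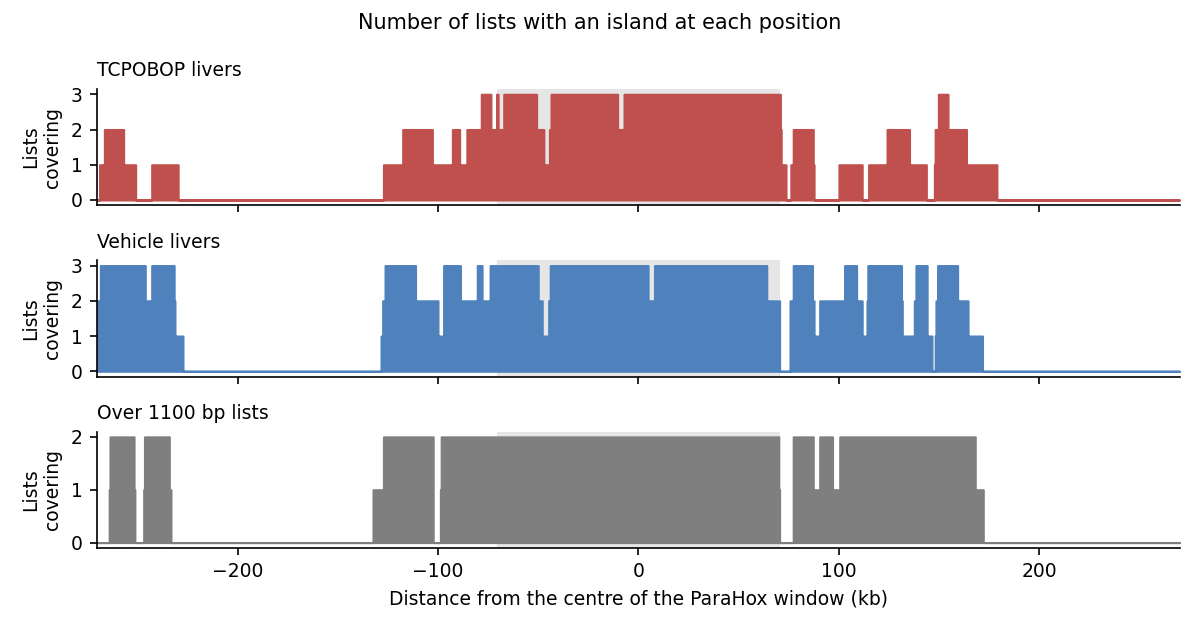
Number of lists with an island (y axis) by distance in kb from the centre of the ParaHox window (x axis), for the 3 TCPOBOP livers, the 3 vehicle livers and the 2 lists over 1100 bp; grey marks the window. Counts stay at or near the full number across most of the window, and fall to 1 TCPOBOP and 1 vehicle liver at the break from -47.2 kb. They drop to 0 just past the right end of the window, and are lower and uneven in the flanks.

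The comparison of treatments asked whether TCPOBOP altered this territory within 3 h. The window was covered to 96.2 ± 2.89% in TCPOBOP livers and 95.6 ± 1.94% in vehicle livers (SD, n = 3 each). Their difference of 0.571 points was smaller than the spread between livers (exact two-sided permutation p = 0.7). The score percentile of the main island was 99.7 ± 0.0872 in TCPOBOP livers and 99.5 ± 0.279 in vehicle livers (SD, n = 3 each, exact permutation p = 0.7). Its score per kb percentile was 94.9 ± 4.65 in TCPOBOP livers and 91.5 ± 11.4 in vehicle livers (SD, n = 3 each, exact permutation p = 0.9). Without vehicle replicate 3 all 3 differences turned, to -0.524 points for window cover, -0.0259 for the score percentile and -3.23 for the score per kb percentile. Window cover also turned without TCPOBOP replicate 1, at -0.190, and without TCPOBOP replicate 2, at -0.333. None of these tests could pass 0.05 with 3 livers against 3. Window cover and score percentile were also near their upper limit in every liver, so they left little room for a gain. Cover counts length under islands, so a weaker mark that was still called would not lower it.

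The left flank, on the side of Polr1d and Lnx2 in the gene order, was the stretch, of the window and the 2 flanks, where the treatments stood apart. Islands covered 30.0, 22.4 and 16% of it in TCPOBOP replicates 1 to 3 and 43.2, 45.8 and 40.2% in vehicle replicates 1 to 3, so every TCPOBOP liver was below every vehicle liver. On average 22.8 ± 7.01% was covered in TCPOBOP livers and 43.1 ± 2.80% in vehicle livers (SD, n = 3 each), which differ by -20.3 points (exact two-sided permutation p = 0.1, the smallest possible). Of 7427 genome tiles of 200 kb with some cover, 4.21% separated the treatments in this direction and 1.27% in the other. With each list cut from its highest score down to the 174 Mb of the shortest, the flank was covered to 17.8, 16.4 and 16% in TCPOBOP livers and 35.0, 45.8 and 40.2% in vehicle livers, and 2.64% of tiles separated in this direction and 2.9% in the other. With islands below the highest of the lists' lowest scores removed, the cover was 17.8, 22.4 and 8.20% in TCPOBOP livers and 43.2, 45.8 and 30.4% in vehicle livers, and 2.04% of tiles separated in this direction and 0.906% in the other. The lists over 1100 bp did not show the contrast, with 41.6% of the left flank covered in the TCPOBOP liver and 39.8% in the vehicle liver. The treatments overlapped once the 2 fragment classes of replicate 1 were merged, at 45.6, 22.4 and 16% in TCPOBOP livers and 48.2, 45.8 and 40.2% in vehicle livers (exact permutation p = 0.2). The whole lists covered 248, 280 and 174 Mb in TCPOBOP livers and 340, 284 and 196 Mb in vehicle livers, and the part of list size in the flank values beyond the cut to equal length was not tested.

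Both ends of the left flank contributed, the far end more. In the 100 kb farther from the window, islands covered 28.8, 12 and 0 kb in TCPOBOP replicates 1 to 3 and 42.8, 37.2 and 35.2 kb in vehicle replicates 1 to 3, a mean difference of -24.8 kb. In the 100 kb next to the window they covered 31.2, 32.8 and 32 kb in TCPOBOP livers and 43.6, 54.4 and 45.2 kb in vehicle livers, a mean difference of -15.7 kb. The treatments overlapped in neither stretch, as in 4.06% of 12063 genome tiles of 100 kb with TCPOBOP livers lower and 1.34% with them higher. A stretch of 4.8 kb from 147809201 to 147814000 was covered in 0 of 3 TCPOBOP and 3 of 3 vehicle livers. Of it, 4.0 kb from 147809201 to 147813200 had no island in the lists over 1100 bp of the same treatments. Stretches of 0.4 kb from 148174401 and from 148203601 in the right flank were of the same kind. The reverse, 3 of 3 TCPOBOP and 0 of 3 vehicle livers, held over 0.4 kb from 148130401 to 148130800. The genome share of such stretches is not given here. The islands over this end were not among the highest of their lists by score, at the 68.7th and 45.9th score percentile in TCPOBOP replicate 1 and the 48.8th in TCPOBOP replicate 2, with none in TCPOBOP replicate 3. They were at the 76.1st, the 85.1st and, for a pair of islands, the 80.5th and 25.6th percentile in vehicle replicates 1, 2 and 3. Score grows with width, and by score per kb the order was largely the reverse. The same islands stood at the 66.5th and 43.9th percentile in TCPOBOP replicate 1 and the 88.0th in TCPOBOP replicate 2. In vehicle replicates 1, 2 and 3 they stood at the 48.6th, the 49.2nd and, for the pair, the 29.8th and 26.8th. Between this end and the islands next to the window, 94.8 kb from 147832801 to 147927600 had no island in the 8 lists, which says that nothing passed the authors' calling there and not that the mark was missing.

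The right flank, on the side of Urad and Flt3, was covered to 18.8, 38.2 and 8.20% in TCPOBOP replicates 1 to 3 and to 46.0, 33.0 and 29.2% in vehicle replicates 1 to 3. The treatments overlapped through TCPOBOP replicate 2 (difference -14.3 percentage points, exact permutation p = 0.3). The difference was -7.57 without TCPOBOP replicate 3 and -22.6 without TCPOBOP replicate 2. A stretch of 4.8 kb from 148209601 to 148214400 was covered in all 8 lists. Beyond 148238800 the remaining 91.2 kb of the flank was free of islands in all 8 lists.

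**Figure D4:**
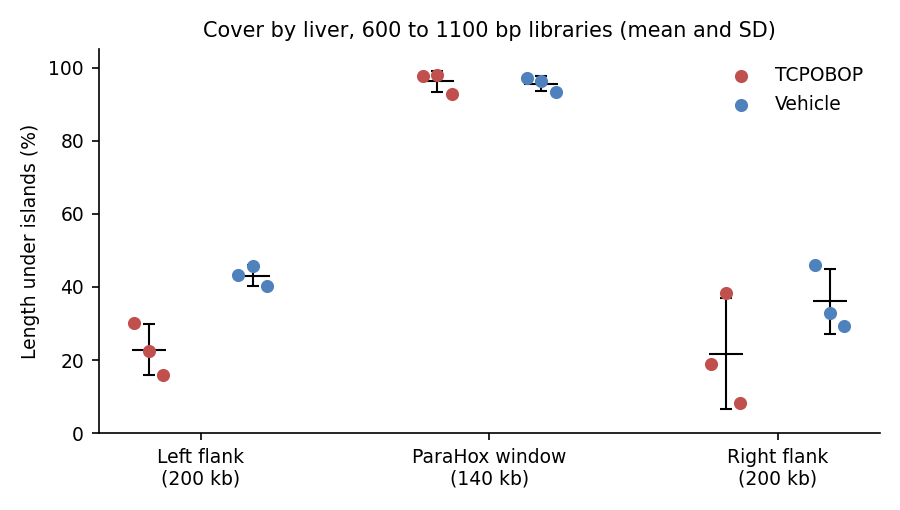
Percent of length under islands (y axis) in the left flank, the ParaHox window and the right flank for each TCPOBOP and vehicle liver of the 600 to 1100 bp libraries; bars are the mean and SD of 3 livers. The window sits at 92.9 to 98.0% in both treatments, and the left flank at 16 to 30.0% in TCPOBOP and 40.2 to 45.8% in vehicle livers.

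In bins of 10 kb, 7 of the 14 bins in the window were fully covered in all 6 livers and so could not separate the treatments, and none of the other 7 did. With so few bins and the genome share given next, a count of 0 says little. In the flanks 3 of 22 bins with cover did (13.6%), all lower in TCPOBOP livers. Over the window and flanks together this was 3 of 36 bins (8.33%). Of 65754 genome bins, 2.55% separated with TCPOBOP livers lower, 0.841% with them higher and 3.39% in either direction. Of the 3 bins, 2 were neighbours in the far end of the left flank, so they are not separate events. From 147800001 to 147810000 the cover was 92.0, 32.0 and 0% in TCPOBOP livers and 100% in each vehicle liver. From 147810001 to 147820000 it was 28, 0 and 0% in TCPOBOP livers and 100, 100 and 68.0% in vehicle livers. The bin from 148170001 to 148180000 in the right flank had 52.0, 16 and 0% in TCPOBOP livers and 100, 72.0 and 60.0% in vehicle livers. Leaving out a liver loosens the rule by construction: it gave 8 such bins without TCPOBOP replicate 2, where 8.18% of genome bins separated in either direction. It gave 5 each without TCPOBOP replicate 1, TCPOBOP replicate 3 or vehicle replicate 3, where 8.06%, 7.25% and 10.2% of genome bins did.

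In a limma fit to the covered fraction of 8659 regions, made by merging the islands of the 6 livers, 0.0% were called at an adjusted p of 0.05. Of these regions, 225 had an unadjusted p under 0.05, 194 lower and 31 higher in TCPOBOP livers, and the median difference over all regions was -7.53 percentage points. The treatments did not overlap, with TCPOBOP livers lower, in 4.33% of the regions, and with TCPOBOP livers higher in 1.48%. The region over the ParaHox window was 202 kb long, from 147931601 to 148133600. It was covered to 83.8, 85.9 and 80.6% in TCPOBOP livers and 89.1, 93.9 and 87.1% in vehicle livers, a difference of -6.60 percentage points (limma SE 8.23, limma adjusted p = 1). Every TCPOBOP liver was below every vehicle liver here, while inside the window the treatments overlapped, and the difference was close to the median of all regions. It turned to 2.47 percentage points after each library was centred on its own mean, where the median of all regions was 1.54. The region of 46 kb at the far end of the left flank, from 147786801 to 147832800, was covered to 62.6, 26.1 and 0% in TCPOBOP livers and 100, 80.9 and 83.5% in vehicle livers (difference -58.6 percentage points, limma SE 23.7, limma adjusted p = 1). The region of 70.8 kb right of the window was covered to 44.6, 58.8 and 0% in TCPOBOP livers and 96.6, 76.8 and 61% in vehicle livers (difference -43.7 percentage points, limma SE 25.2, limma adjusted p = 1). The treatments did not overlap there, and the difference was -26.5 without TCPOBOP replicate 3. In the region of 31.2 kb after it they overlapped, with 15.4, 100 and 50% in TCPOBOP livers and 74.4, 35.9 and 48.7% in vehicle livers (difference 2.14 percentage points, limma adjusted p = 1).

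The fragments over 1100 bp showed the domain as 1 island of 168.8 kb. It covered 100% of the window in both lists and ran from 147961201 to 148130000 in the TCPOBOP liver and from 147961601 to 148130400 in the vehicle liver. Both ends thus differed between the livers by 400 bp. The shorter fragments from those ChIP samples covered 97.7% in the TCPOBOP liver and 97.1% in the vehicle liver. The long island began 28 kb before the joined islands of 600 to 1100 bp in the TCPOBOP liver and 1.2 kb before them in the vehicle liver. Most of those 28 kb lay under another island of the shorter fragments, of 19.2 kb from 147967201 to 147986400. It was not joined because it does not overlap the window. By score the long island ranked 72 of 22077 in the TCPOBOP liver and 72 of 17577 in the vehicle liver, and by score per kb at the 98.8th percentile in both. Fragment class and list size differ together in these lists and cannot be told apart, and with 2 pairs no test was made.

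The Hox clusters, the closest relatives of the ParaHox genes, gave the nearest comparison, through windows at HoxA, HoxC and HoxD. HoxB was not measured. The main island of the ParaHox window stood lower by score per kb than that of HoxA, at a median percentile of 97.4 against 99.5, and was lower in 6 of 6 livers (mean difference -6.27 percentage points, SD 7.99, n = 6, exact two-sided sign-flip permutation p = 0.0312, adjusted over 3 clusters 0.0469). Against HoxD, at 99.1, it was lower in 6 of 6 livers (-5.83 ± 7.61, SD, n = 6, exact permutation p = 0.0312, adjusted 0.0469). Against HoxC, at 98.6, it was lower in 5 of 6 livers (-4.42 ± 7.69, SD, n = 6, exact permutation p = 0.0625). Vehicle replicate 3, where the ParaHox island stood at 78.4, carried much of these means, which were -3.30 for HoxA, -1.30 for HoxC and -3.02 for HoxD without it. With the island of highest score per kb in each window, the HoxA and HoxD differences were -1.93 and -1.49 and no longer passed 0.05 (exact permutation, adjusted p = 0.0938 for each). Each 600 to 1100 bp list had a break in the ParaHox window of 140 kb. None had one in the HoxA window of 110 kb, TCPOBOP replicate 3 and vehicle replicate 3 had one in the HoxC window of 120 kb, and TCPOBOP replicate 3 had one in the HoxD window of 110 kb.

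**Figure D5:**
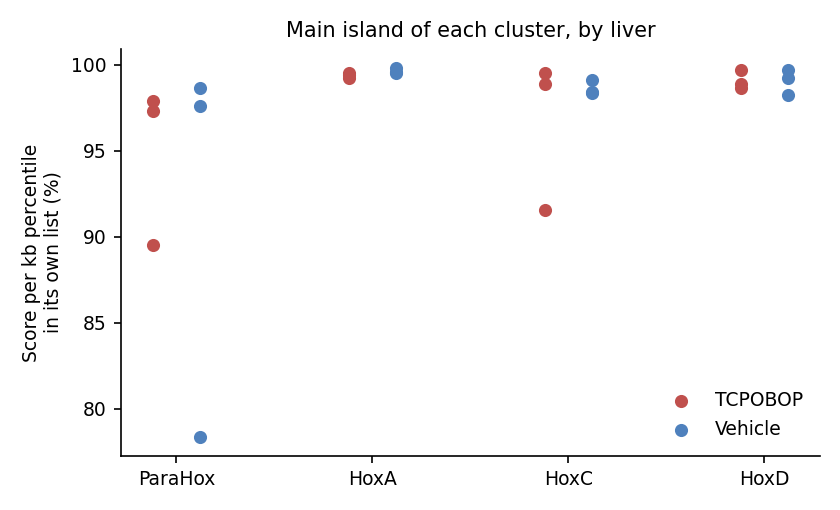
Percent of islands in the same list with a lower score per kb than the main island (y axis, starting at about 77%) for the ParaHox, HoxA, HoxC and HoxD windows, for each TCPOBOP and vehicle liver. ParaHox points lie at 78.4 to 98.7, below those of HoxA in each liver.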

How the data were processed

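H3K27me3 ChIP-seq islands were deposited as 1 list per library, without pooling of replicates. The deposited value is the authors' island score. How it was scaled between libraries is not stated, so scores were only ranked within a list. Bowtie2 2.3.2, SICER 1.1 and build mm9 are listed, per the submitters' processing notes, with no role. No source used here says whether an input was used. The settings in the file names are windows of 400 bp and gaps of 2400 bp. Coordinates are mm9 and 1-based.

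Percent cover, island edges, widths and within-list percentiles were computed for the window and flanks. Groups were taken from the labels. The 3 TCPOBOP and 3 vehicle livers were compared with exact permutation tests over 20 labellings, clusters with an exact sign-flip test over 6 livers, and regions covered by 50% or more in at least 2 libraries with limma 3.58.1 (trend, Benjamini-Hochberg at 0.05) in R 4.3.3. The limma step was tested on simulated data whose changed regions were fully covered in vehicle and uncovered in TCPOBOP libraries. That check does not tell how well partial changes are found. Cover and ranks were computed in Python 3.11.15 with pandas 2.3.3 and numpy 2.4.6, and plots drawn with matplotlib 3.10.9. Hox and Alb windows are approximate mm9 positions from general knowledge. Depth is unknown, so no counting interval was given. The text names the 3 members, up to 4 neighbouring genes on each side, and islands or regions over the window and flanks. The members and lists were chosen with earlier results of these data known. Alternatives were a score minimum, equal covered length, each liver left out, pairing by replicate number, libraries of like island width, merged fragment classes, and other window, flank and bin sizes. Joined islands and the best-ranked island per window were added after seeing the data, as were the 140 kb and 200 kb tiles, the split of the left flank, the 100 kb tiles, the shares of separated regions and the Alb window.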

Additional observations from a re-analysis of the deposited data

How the results depend on the processing

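With 1 liver left out, the difference in window cover (0.571 points) lay between -0.524 and 2.24; it was -1.71 among the 3 libraries of higher median island width and -2.37 with the window widened by 20 kb. Main island width ranged from -11.2 to 11.3 kb, and was 1.80 kb among those libraries, -21.8 kb among the 3 of lower width and 11.1 kb with fragment classes merged. Score percentile ranged from -0.0259 to 0.251 and was -0.0196 for the highest-scoring island. Score per kb percentile ranged from -3.23 to 6.93 and was -5.25 among the libraries of higher width, 9.91 among those of lower width and -1.26 for the highest score per kb. Both flanks kept their direction in every alternative run on the 6 livers. In the lists over 1100 bp, 1 per treatment, cover was higher in the TCPOBOP liver. It was 41.6 against 39.8% in the left flank and 45.4 against 44.2% in the right. The left flank lay between -23.9 and -16.9 with 1 liver left out and was -13.0 among the 3 libraries of lower width. The right flank lay between -22.6 and -7.57, and was -5.87 with fragment classes merged and -31.1 with flanks of 100 kb. That last value is a percent of 100 kb and the others are of 200 kb, so their sizes cannot be compared directly. The main island's right edge lay 23.3 kb further on in TCPOBOP livers, and 1.47 to 34.3 kb with 1 liver left out. Its left edge lay 24.7 kb further on, and 12.4 to 31.0 kb with 1 liver left out. Both depend on where the break fell and on which island of the pair was the main one. The joined islands differed by 3.6 kb at the right edge and 11.7 kb at the left.

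Bins that separated the treatments numbered 4 to 8 with 1 liver left out, where the genome share was 7.02 to 10.2%, against 3.39% with all livers. The Hox differences ranged from -7.34 to -3.30 for HoxA, -5.35 to -1.30 for HoxC and -6.89 to -3.02 for HoxD with 1 liver left out, where 5 livers cannot pass the threshold, were -1.93 for HoxA and -1.49 for HoxD with the highest score per kb, and -0.334 for HoxC by score (exact permutation, adjusted p = 0.0312). limma called 1 region genome-wide on the arcsine scale, outside this locus. The region over the window turned to 2.47 when centred, and the last one to -2.99 with the score minimum and -20.3 to 22.0 with 1 liver left out. Apart from the loss of livers, the cause of these changes was not tested.

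Nothing in the labels ties equal replicate numbers to each other, and the correlation between equal numbers' deviations was -0.0539, -0.0163 and 0.039. With the replicate block the window difference was 0.571 (exact sign-flip permutation p = 0.75) and the left flank -20.3 (p = 0.25, exact, the smallest 3 pairs allow), and limma called 0 regions.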
